A study of Homo sapiens with 8 samples.

Results

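The genes described here encode the kinetochore, the protein assembly on each centromere that captures spindle microtubules, and the spindle checkpoint that reads its attachment state. They were chosen by symbol from a list of 43 genes, of which 41 had a probe set that the platform annotation ties to a single gene, among 18404 genes tested in all. The other 2, CENPA, the centromeric histone H3 variant, and PMF1, a subunit of the MIS12 complex, shared their probe sets with another symbol and were not analysed here. Expression was measured on 8 single-channel arrays of HepG2, an established human liver tumour cell line. The labels call 4 samples senescent: an exposure to the oxidant H2O2 (0.5 mM, 60 minutes) was meant to put these cells into senescence, in which division stops for good. The 4 untreated samples had medium without H2O2, and both kinds were incubated for 5 days before their phenotype was tested. The time of RNA extraction is not stated in the labels. Everything therefore concerns a single tumour line and a single exposure, with 4 arrays per group, described as biological replicates in the series' design text.

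As background, the inner kinetochore forms on nucleosomes that carry CENP-A, which the chaperone HJURP and the MIS18 proteins place there once per cell cycle. The CCAN proteins (constitutive centromere-associated network, most of the CENP names) stay on the centromere through the cycle and carry the KMN network, made of the KNL1, MIS12 and NDC80 complexes, whose NDC80 arm grips the microtubule. BUB1, BUB1B, MAD1L1, MAD2L1, TTK and BUB3 hold back anaphase until every chromosome is attached. Many of these genes are transcribed mainly in G2 and M phase, under repression by the DREAM complex in arrested cells, which binds promoters through CHR elements (cell cycle genes homology regions) and E2F sites, whereas the factor NF-Y binds CCAAT boxes and activates them.

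Promoter sequences are shown for genes that passed and genes that did not pass the test, not for both ends of the range of differences. They come from the 3 listed genes with the largest falls. They also come from the 3 with the smallest differences among the genes that did not pass the test and had an entry. Each is the stretch from 150 bases before the annotated start to 30 bases from it, 5′ to 3′ on the gene's strand, from RefSeq on GRCh38.p14, with capitals marking a CHR, a CCAAT box or an E2F site on either strand. The letters searched for the cell cycle element CHR were TTTGAA, and the NF-Y element was searched by the letters that give the CCAAT box its name. For E2F the first spelling searched was TTCCCGC, followed by a further spelling with the letters TTCGCGC and by another spelling with the letters TTGCCGC, while the remaining spelling searched was TTGGCGC. Matches that overlapped were all kept.
NUF2 (GRCh38.p14 chr1:163321804-163321983, plus strand, log2 difference -1.67): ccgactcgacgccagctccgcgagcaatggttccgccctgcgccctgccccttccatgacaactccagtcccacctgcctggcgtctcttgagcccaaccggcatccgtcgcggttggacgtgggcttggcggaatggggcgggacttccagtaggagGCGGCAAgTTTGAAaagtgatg
SPC25 (GRCh38.p14 chr2:168890401-168890580, minus strand, log2 difference -1.63): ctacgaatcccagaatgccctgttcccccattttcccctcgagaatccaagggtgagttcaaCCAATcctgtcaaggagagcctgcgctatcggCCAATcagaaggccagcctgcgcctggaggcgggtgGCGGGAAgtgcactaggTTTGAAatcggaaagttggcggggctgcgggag
CENPE (GRCh38.p14 chr4:103198314-103198493, minus strand, log2 difference -1.48): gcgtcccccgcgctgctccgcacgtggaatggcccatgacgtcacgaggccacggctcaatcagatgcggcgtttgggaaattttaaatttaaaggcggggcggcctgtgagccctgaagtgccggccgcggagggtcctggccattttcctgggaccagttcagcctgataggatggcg
MIS12 (GRCh38.p14 chr17:5486224-5486403, plus strand, log2 difference 0.0048): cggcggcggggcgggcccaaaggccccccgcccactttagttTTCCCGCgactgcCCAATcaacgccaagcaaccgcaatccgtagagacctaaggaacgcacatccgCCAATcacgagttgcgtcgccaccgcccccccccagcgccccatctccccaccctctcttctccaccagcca
MAD1L1 (GRCh38.p14 chr7:2232916-2233095, minus strand, log2 difference -0.15): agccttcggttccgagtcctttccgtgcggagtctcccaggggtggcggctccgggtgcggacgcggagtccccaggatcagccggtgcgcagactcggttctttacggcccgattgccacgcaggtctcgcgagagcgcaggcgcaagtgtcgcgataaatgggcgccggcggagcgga
CENPC (GRCh38.p14 chr4:67545474-67545653, minus strand, log2 difference -0.34): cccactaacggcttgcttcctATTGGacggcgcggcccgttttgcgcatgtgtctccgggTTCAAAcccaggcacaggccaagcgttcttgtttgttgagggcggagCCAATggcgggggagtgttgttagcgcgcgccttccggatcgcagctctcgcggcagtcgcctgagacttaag

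NUF2 and SPC25, 2 subunits of the NDC80 complex, held both a CHR and an E2F site in the stretch shown, and SPC25 held CCAAT boxes too. CENPE, which fell nearly as much, held none of the letters searched, and neither did MAD1L1, whereas MIS12 and CENPC, which did not pass, held CCAAT boxes with an E2F site or a CHR. Over windows of 300 bases (250 before the start), 33 of the 41 measured genes had an entry. CENPT, the listed gene that rose, is not shown and held none of the letters searched in its window. A CHR was present in 14 of these 33 promoters (42.4%), against 11.9% of the 14230 tested genes with an entry, and in 13 of the 29 whose expression fell (44.8%), against 14.6% of all tested genes that fell. CCAAT boxes stood in 20 of the 33 (60.6%, against 36.3%) and E2F sites in 12 (36.4%, against 17.5%). Against all tested genes that fell the gap was smaller: 62.1% of the 29 against 42.4% for CCAAT boxes, and 37.9% against 25.2% for E2F sites. A match is a description of letters only, and a promoter without one says nothing about whether the factor binds.

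Against untreated cells, H2O2-treated cells had less RNA of most of the listed kinetochore and checkpoint genes. Of the 41 measured genes 36 fell and 1 rose at a Benjamini-Hochberg adjusted p under 0.05 in limma (a linear model per gene with variances moderated over all genes), and 4 did not pass. Over all 18404 genes 14.8% were lower and 19.2% higher by the same rule, and 34% passed in either direction. The median log2 difference (H2O2 minus untreated) was -0.91 over the 41 genes and -0.022 over all genes tested. In 20 of the 41 genes the log2 difference was -1 or below, and 1.12% of all genes were called lower with such a difference. The 36 genes that fell were also those in which every H2O2 array lay below every untreated array, a separation seen downward in 14.8% of all genes. The gene that rose had every H2O2 array above every untreated one, as did 18.9% of all genes. A bulk measurement cannot tell fewer dividing cells in the culture from less of each RNA per cell. Every difference below is H2O2 minus untreated on the log2 scale with its standard error, with n = 4 arrays per group, and adjusted p-values are limma's unless another test is named.

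**Figure D1:**
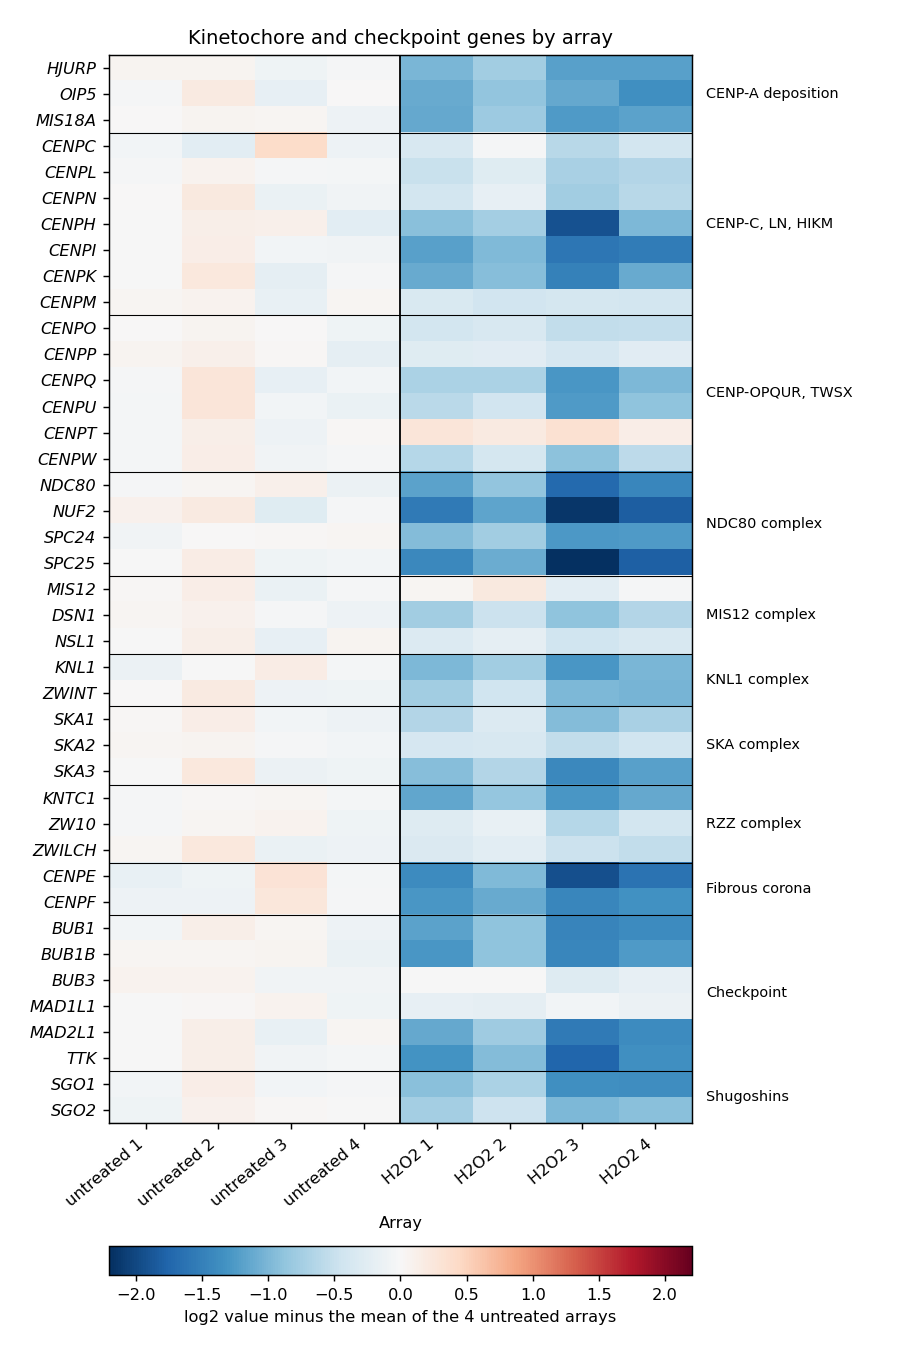
Log2 value of each measured gene (rows, grouped by complex) on each array (columns) minus the mean of the 4 untreated arrays; blue is lower and red higher. The 4 H2O2 columns are blue for nearly every gene, deepest for NUF2 and SPC25 on H2O2 replicate 3, and CENPT is the gene whose 4 H2O2 values are all above its untreated ones.

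Genes outside the kinetochore were used to check the labelled state and cell type. CDKN1A, which encodes the arrest-imposing kinase inhibitor p21, lay at 8.44, 8.55, 8.55 and 8.59 without treatment and at 10.91, 10.83, 10.99 and 10.84 on the treated arrays, both in replicate order (2.36 ± 0.067). MKI67, the proliferation marker Ki-67, fell by 1.32 ± 0.10, and 5 of 6 proliferation markers fell and 0 rose, PCNA being the exception at 0.14 ± 0.090 (adjusted p = 0.270). The 8 hepatocyte markers had means from 11.05 to 12.87 untreated and 10.69 to 12.63 treated, and 5 fell and 1 rose. Of 6 leukocyte markers (4.23 to 12.90 untreated, 4.09 to 12.83 treated) CD68 and CD14 rose and 0 fell. PTPRC, the pan-leukocyte marker, was the lowest at 4.23 ± 0.080 untreated (SD, n = 4). LYZ was the highest at 12.90 untreated, above every hepatocyte marker, and CD68 went from 9.56 to 10.36. Of 6 fibroblast markers (4.05 to 8.13 and 3.94 to 7.99) 1 rose and 1 fell, and of 6 endothelial markers (5.23 to 7.49 and 5.13 to 7.42) 1 fell and 0 rose. The part of other cell types in the results was not tested. Median log2 values of the arrays ran from 6.85 to 6.93.

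The measured genes for loading CENP-A all fell. HJURP, the CENP-A chaperone, lay at 8.99, 8.99, 8.83 and 8.91 in the untreated arrays, in replicate order, and at 7.93, 8.17, 7.74 and 7.74 in the H2O2 arrays (-1.03 ± 0.094, 2.05-fold lower, adjusted p = 1.51e-06). OIP5 (MIS18B), which with MIS18A licenses the centromere for new CENP-A, went from 8.23, 8.45, 8.07 and 8.25 to 7.14, 7.38, 7.12 and 6.90 (-1.11 ± 0.10). Both were lower on every treated array than on any untreated one, with no overlap. MIS18A fell by 1.09 ± 0.093, so the 3 measured loading genes spanned only -1.11 to -1.03.

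Changes in the CCAN covered a wide range. Of the 7 genes of the CENP-C, CENP-LN and CENP-HIKM groups 6 fell and 0 rose. CENPI, a CENP-HIKM subunit, had untreated values of 8.61, 8.77, 8.57 and 8.54 and H2O2 values of 7.42, 7.65, 7.04 and 7.08 (-1.33 ± 0.12, 2.51-fold lower, adjusted p = 1.37e-06), and its partners CENPH (-1.15 ± 0.20) and CENPK (-1.16 ± 0.11) also fell. CENPH read 6.48, 6.66, 5.48 and 6.41 on the H2O2 arrays, and without H2O2 replicate 3 its difference was -0.88. CENPM, in the same group, fell by 0.39 ± 0.072, from a mean of 8.27 ± 0.12 to 7.88 ± 0.041 (SD, n = 4). CENPL and CENPN, which together bind CENP-A nucleosomes, both fell (-0.53 ± 0.090 and -0.50 ± 0.12).

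CENPC, the scaffold that links CENP-A nucleosomes to the MIS12 complex, gave 7.20, 7.02, 7.65 and 7.14 untreated and 6.90, 7.23, 6.65 and 6.84 after H2O2. Untreated replicate 3 was the highest of the 8 arrays, and H2O2 replicate 2 lay above 3 of the untreated arrays, so the groups overlapped. Its difference of -0.34 ± 0.14 did not pass (adjusted p = 0.0704; unadjusted 95% interval -0.64 to -0.048). It did pass without untreated replicate 2 (-0.42, adjusted p = 0.0364) and without H2O2 replicate 2 (-0.45, adjusted p = 0.0147), and also with dim genes left out (adjusted p = 0.0492). The value shrank to -0.21 (adjusted p = 0.200) without untreated replicate 3 and to -0.26 (adjusted p = 0.158) without H2O2 replicate 3.

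In the CENP-OPQUR and CENP-TWSX groups 5 of 6 genes fell. CENPQ, a microtubule-binding subunit of the outer CCAN, showed the largest fall, from 7.64, 7.93, 7.48 and 7.60 to 6.97, 6.96, 6.39 and 6.68 (-0.91 ± 0.13), and CENPU, its partner and a docking site for PLK1, fell by 0.79 ± 0.15. CENPO fell by 0.46 ± 0.070 and CENPP by 0.28 ± 0.077, the smallest fall of any listed gene that passed. CENPW, the histone-fold partner of CENPT, fell by 0.62 ± 0.098.

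CENPT, which reaches from centromeric DNA to the NDC80 complex, was the 1 listed gene that rose. In replicate order the untreated arrays read 8.36, 8.52, 8.28 and 8.43 and the H2O2 arrays 8.67, 8.59, 8.74 and 8.55, with every treated array above every untreated one by a narrow margin. The difference of 0.24 ± 0.073 passed at adjusted p = 0.0211. The call was lost without untreated replicate 1 (0.23, adjusted p = 0.0622), untreated replicate 3 (0.20, adjusted p = 0.0503) or H2O2 replicate 1 (0.23, adjusted p = 0.0579).

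The NDC80 complex, the microtubule-gripping arm of the outer kinetochore, had the lowest median of the 11 groups (-1.46), and its 4 genes all fell. NUF2, which pairs with NDC80 at the microtubule-binding end, had the largest difference of the listed genes. Its untreated values were 9.48, 9.58, 9.12 and 9.37 and its H2O2 values 7.83, 8.23, 7.25 and 7.58 (-1.67 ± 0.17, 3.17-fold lower, adjusted p = 3.24e-06). H2O2 replicate 3 was the lowest and H2O2 replicate 2 the highest of the treated arrays, and both lay below every untreated one. SPC25, at the kinetochore-facing end, had 6.99, 7.33, 6.22 and 6.62 on the treated arrays and a difference of -1.63 ± 0.17, within the error of that of NUF2. Its treated mean of 6.79 lies below the median of all values (6.89), where no level was shown to lie above background, so the size of its fall is less exactly known. NDC80 fell by 1.30 ± 0.14. SPC24, the partner of SPC25, moved least, from 8.01, 8.10, 8.12 and 8.13 to 7.14, 7.32, 6.83 and 6.85 (-1.06 ± 0.10).

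In the MIS12 complex, which joins NDC80 to the centromere, 2 of 3 measured genes fell. MIS12 itself had 8.74, 8.85, 8.56 and 8.69 in untreated and 8.76, 8.93, 8.47 and 8.68 in H2O2 arrays, which overlapped throughout. The difference was 0.0048 ± 0.096 (adjusted p = 0.977; unadjusted 95% interval -0.20 to 0.21), so a change of the size seen in NDC80 genes lies outside its interval. DSN1, the subunit that Aurora B phosphorylates to open the complex, fell from 9.77, 9.82, 9.70 and 9.62 to 8.96, 9.25, 8.84 and 9.08 (-0.69 ± 0.088). NSL1 fell by 0.32 ± 0.081, from 10.63 ± 0.14 to 10.31 ± 0.095 (SD), with no overlap between the groups.

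KNL1, the large scaffold on which the checkpoint proteins assemble, went from 8.65, 8.77, 8.94 and 8.73 to 7.78, 8.01, 7.50 and 7.77 (-1.01 ± 0.10, adjusted p = 3.21e-06). ZWINT, its partner, went from 8.54, 8.72, 8.42 and 8.44 to 7.77, 8.09, 7.54 and 7.51 (-0.80 ± 0.12). In both genes the treated arrays lay wholly below the untreated ones, and for both H2O2 replicate 2 was the highest of its group.

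All 3 SKA genes, whose complex keeps NDC80 attached to shrinking microtubule ends, fell. SKA3 had 8.65, 8.89, 8.53 and 8.57 before and 7.72, 8.02, 7.25 and 7.46 after H2O2 (-1.05 ± 0.14), while SKA2 had 11.10, 11.12, 11.04 and 11.00 and 10.70, 10.72, 10.52 and 10.62 (-0.43 ± 0.068), with no overlap in either. SKA1 fell by 0.65 ± 0.12. SKA2 is the listed gene with more than 1 probe set. Its other set fell too, by 0.53 ± 0.14 in a limma fit of all probe sets together. That set read 9.93, 10.01, 9.88 and 9.78 on the untreated arrays and 9.56, 9.59, 8.91 and 9.42 on the H2O2 arrays, lowest on H2O2 replicate 3.

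The RZZ complex, which recruits dynein and MAD1 to unattached kinetochores, had 3 falls of unequal size. KNTC1 (ROD), its largest subunit, dropped from 8.63, 8.67, 8.69 and 8.60 to 7.51, 7.80, 7.37 and 7.52 (-1.10 ± 0.086, 2.14-fold lower, adjusted p = 3.43e-07). ZW10, which also works in membrane traffic between the Golgi and the endoplasmic reticulum, went from 7.79, 7.86, 7.88 and 7.71 to 7.53, 7.65, 7.19 and 7.40 (-0.37 ± 0.092). Both separated the groups, ZW10 by only 0.06 between its highest treated and lowest untreated array. ZWILCH fell by 0.40 ± 0.095.

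Of the fibrous corona, the outermost layer that meets microtubules first, CENPE, a plus-end kinesin, had untreated values of 7.99, 8.07, 8.46 and 8.12 and treated values of 6.77, 7.19, 6.22 and 6.53 (-1.48 ± 0.16), and its treated mean of 6.68 also lies below the median of all values. CENPF, a large coiled-coil protein, went from 9.23, 9.22, 9.58 and 9.31 to 8.05, 8.22, 7.90 and 8.01 (-1.29 ± 0.093, adjusted p = 1.68e-07). Both were highest on untreated replicate 3 and lowest on H2O2 replicate 3, and the groups lay far apart.

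**Figure D2:**
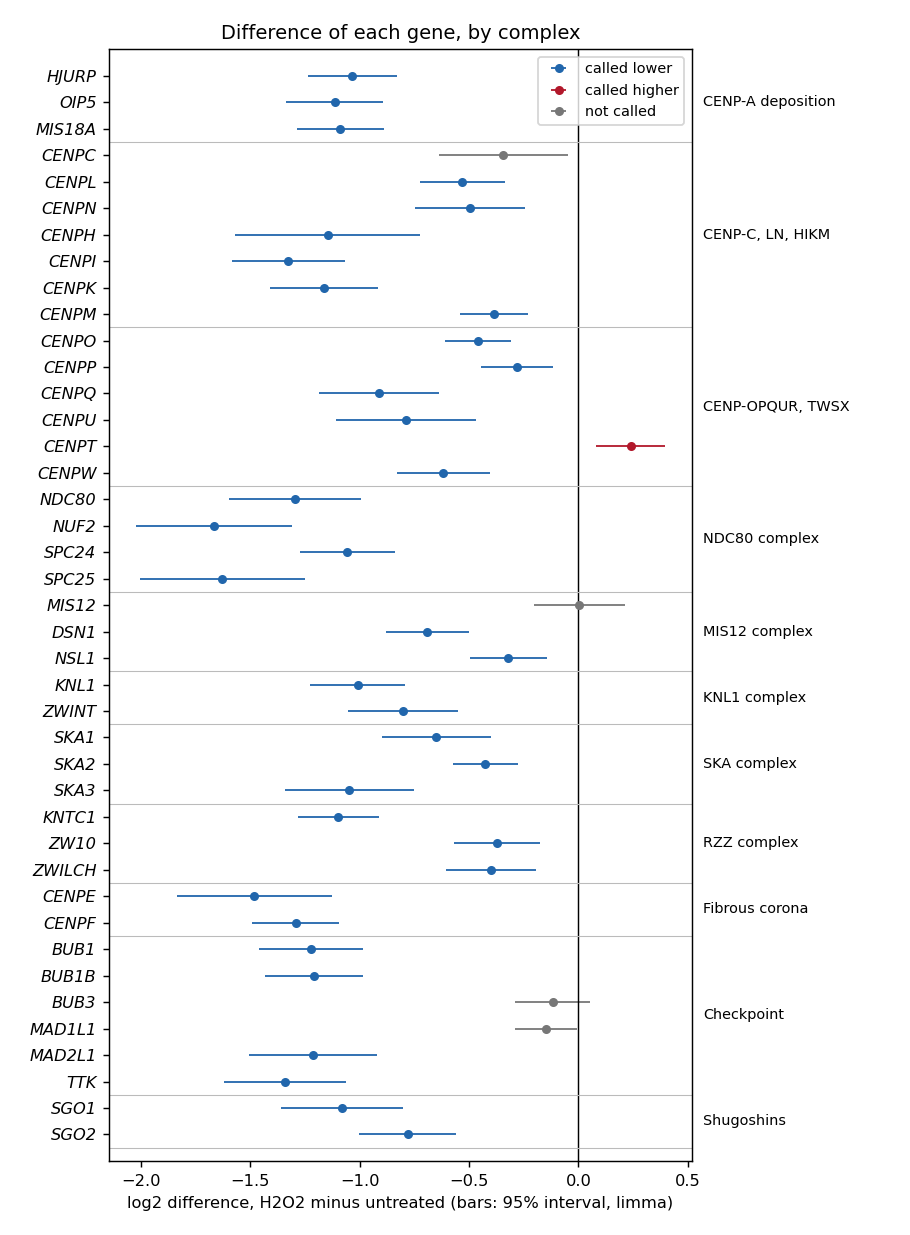
Log2 difference (H2O2 minus untreated, horizontal axis) of the 41 measured genes with limma's 95% interval, ordered by complex; blue genes were called lower, red higher and grey not called. The NDC80 genes reach furthest left (NUF2 at -1.67), and CENPC, MIS12, BUB3 and MAD1L1 are the grey points.

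In the spindle checkpoint, 4 of 6 genes fell and 0 rose. TTK (MPS1), the kinase that starts checkpoint signalling, went from 8.45, 8.58, 8.38 and 8.42 to 7.15, 7.51, 6.71 and 7.10 (-1.34 ± 0.13, 2.53-fold lower, adjusted p = 2.43e-06). The kinase BUB1 (-1.22 ± 0.11) fell, as did the APC/C inhibitor BUB1B (BUBR1, -1.21 ± 0.10) and MAD2L1, the MAD2 protein that captures CDC20 (-1.21 ± 0.13). These 4 lay within -1.34 to -1.21.

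BUB3 and MAD1L1 did not pass. BUB3, the WD40 protein that carries BUB1 and BUB1B to KNL1, had 9.75, 9.75, 9.60 and 9.60 untreated and 9.66, 9.67, 9.40 and 9.49 after H2O2, with H2O2 replicates 1 and 2 inside the untreated range. Its difference was -0.12 ± 0.080 (adjusted p = 0.297; unadjusted 95% interval -0.29 to 0.054), and -0.064 without H2O2 replicate 3 (adjusted p = 0.529). MAD1L1, the MAD1 protein that anchors MAD2 at the kinetochore and at nuclear pores, had 8.34, 8.37, 8.42 and 8.26 and 8.16, 8.15, 8.28 and 8.21, and only H2O2 replicate 3 reached the lowest untreated array. It gave -0.15 ± 0.066 (adjusted p = 0.104; unadjusted 95% interval -0.29 to -0.006), and passed with array weights (-0.16, adjusted p = 0.0316).

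The shugoshins, which protect centromeric cohesin, both fell. SGO1 went from 8.59, 8.78, 8.58 and 8.62 to 7.73, 7.95, 7.29 and 7.28 (-1.08 ± 0.13) and SGO2 from 7.90, 8.09, 8.03 and 7.99 to 7.26, 7.54, 7.01 and 7.08 (-0.78 ± 0.10). For each, the treated arrays were all below the untreated ones.

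Because many of these proteins act in shared complexes, the change of paired genes was compared within each array, in 20 measured pairs of a list of 22. CENPE with CENPF and SGO1 with SGO2 were paired by their group, not as obligate binding partners. The counts of pairs include them, and SGO1 with SGO2 is among the 11 counted next. For each pair the log2 difference between the partners on each array was tested between the groups with an exact two-sided permutation test. Of the 20 pairs 11 reached exact p = 0.0286, the smallest that 4 against 4 arrays allow, which becomes adjusted p = 0.0519 after Benjamini-Hochberg adjustment over the 20, so 0 pairs passed and the unadjusted exact p was under 0.05 in 11. limma on the same per-array differences called 11 pairs, 10 of them among those 11. Without H2O2 replicate 2 the exact test passed 13 pairs, and without any other single array 0. Pairs at the smallest exact p share the same adjusted p, so they pass together or not at all. The count therefore depends on how many pairs reach that p and cannot single out a pair.

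The widest gaps were in the checkpoint. BUB1 fell by 1.11 ± 0.094 more than BUB3, and BUB1B by 1.09 ± 0.094 more (each exact p = 0.0286). MAD2L1 fell by more than its anchor MAD1L1, with a gap (MAD1L1 minus MAD2L1) of 1.06 ± 0.21 (exact p = 0.0286). CENPI fell by 0.94 ± 0.16 more than CENPM. The gap of CENPT over CENPW was 0.86 ± 0.14 and that of ZW10 over KNTC1 0.73 ± 0.047, each at the same exact p. These errors are standard errors over 4 and 4 arrays. After adjustment none of these gaps passed the exact test (adjusted p = 0.0519), while limma called each of them. Such a gap describes unequal change of the partners, not which of them stayed level.

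In 4 pairs the gap was smaller than its standard error. CENPH and CENPK differed in their change by 0.018 ± 0.19 (exact p = 0.943), OIP5 and MIS18A by -0.025 ± 0.10 (exact p = 0.83), ZW10 and ZWILCH by 0.026 ± 0.10 (exact p = 0.800), and CENPL and CENPN by -0.035 ± 0.066 (exact p = 0.629). A p of that size does not show that partners changed alike. CENPH minus CENPK was -2.215 on H2O2 replicate 3, against -1.593, -1.574 and -1.653 on H2O2 replicates 1, 2 and 4. On untreated replicates 1 to 4 it was -1.786, -1.872, -1.461 and -1.987. The gap near 0 of CENPH and CENPK therefore leaned on replicate 3 of both groups. limma with array weights, lowest for those 2 arrays, gave a gap of 0.17. limma's 95% interval for CENPL minus CENPN, from -0.22 to 0.15, and for CENPH minus CENPK, from -0.31 to 0.34, give the gap these arrays could have missed. NDC80 and NUF2, which limma called, had a gap of 0.37 ± 0.13 (exact p = 0.0571).

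**Figure D3:**
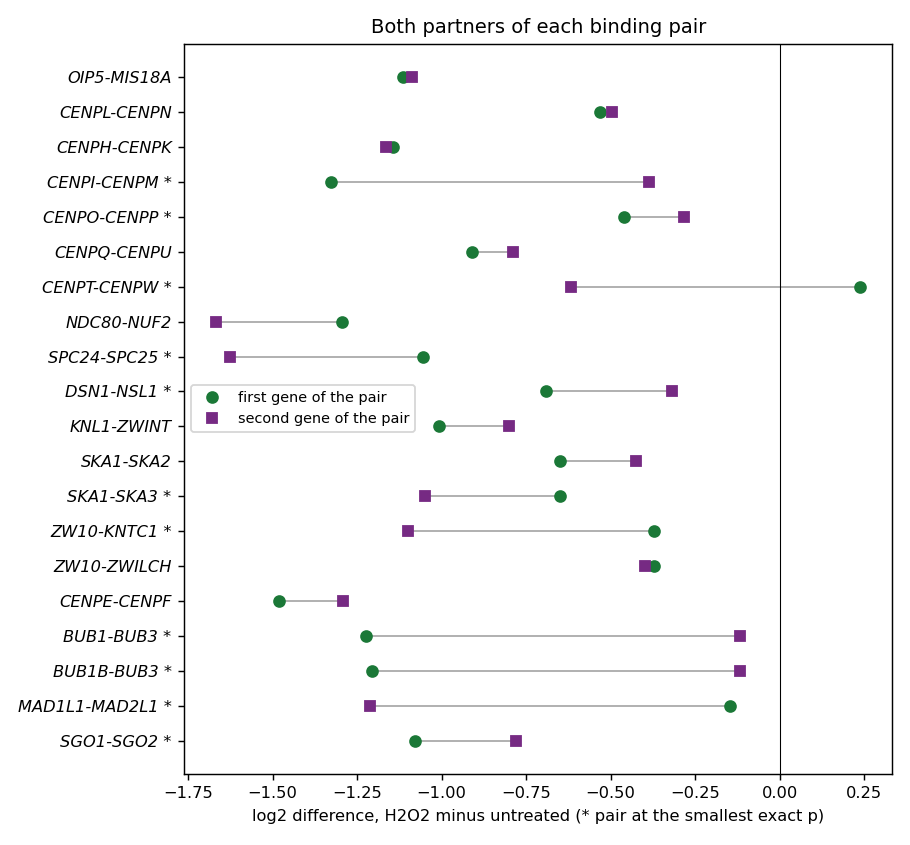
Log2 difference (H2O2 minus untreated, horizontal axis) of both genes of each of the 20 pairs; circles are the first and squares the second gene named, and an asterisk marks the 11 pairs at the smallest exact p. BUB3 and MAD1L1 sit near 0 while their partners lie below -1.2, and CENPT and CENPW lie on opposite sides of 0.

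The treated arrays differed in how low the genes lay. Over the 36 genes that fell, the median distance from the untreated mean was -0.93, -0.72, -1.26 and -1.07 on H2O2 replicates 1 to 4. H2O2 replicate 2 was the highest treated array in 33 of the 36 genes and H2O2 replicate 3 the lowest in 31. Among the 2696 other genes that fell, replicate 2 was the highest in 50.4% and replicate 3 the lowest in 45.0%. Untreated replicate 2 was likewise the highest untreated array in 27 of the 36, against 25.6% of the other genes that fell. The 6 proliferation markers had their highest treated value on H2O2 replicate 2 in 6 cases and their lowest on replicate 3 in 5, and the part of this in the results was not tested. The SD was larger among treated than among untreated arrays in 33 of the 41 genes, against 50.6% of all genes. When limma weighted the arrays by how well they fitted their group, H2O2 replicate 3 (0.37) and untreated replicate 3 (0.43) had the lowest weights. Without any single array, 36 or 37 of the 41 genes fell.

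**Figure D4:**
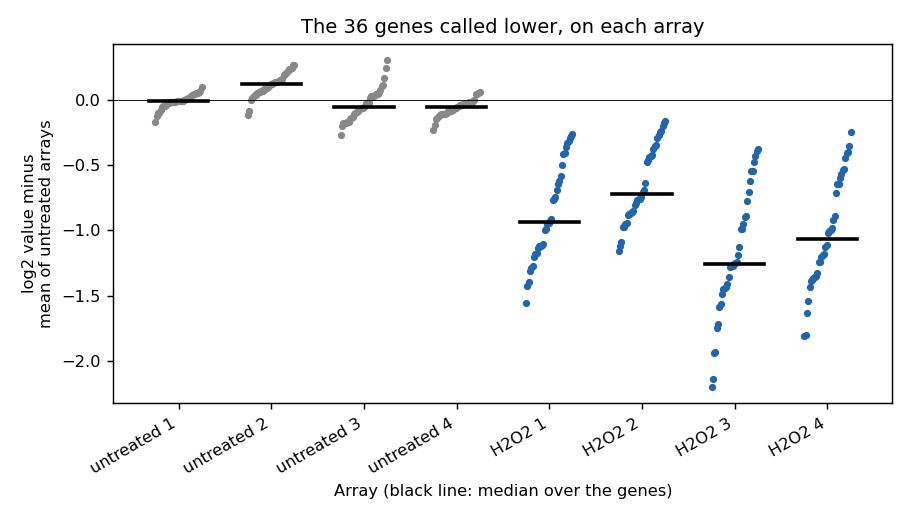
Log2 value minus the untreated mean (vertical axis) of the 36 genes called lower on each of the 8 arrays, 1 point per gene, with the median as a black line. The treated medians run from -0.72 (H2O2 replicate 2) to -1.26 (H2O2 replicate 3), all below the untreated ones.

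Across the 41 genes the untreated level and the difference were nearly unrelated (Pearson's r = -0.080, Spearman's rho = -0.125), as a description over genes that share the same 8 arrays. In untreated cells 1 listed gene had a mean below the median of all values (6.89), CENPL at 6.55 ± 0.056, and in treated cells 8 did (CENPL, CENPH, CENPP, CENPQ, CENPW, SPC25, SKA1 and CENPE), a range where no level was shown to lie above background and the size of a fall is less exactly known.

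Other genes of the pathway, from lists that do not include the 41, gave 27 of 45 lower and 8 higher, with a median of -0.35, beside 14.8% lower and 19.2% higher over all genes. The count of rises is near that background and is no result about the pathway, so the rises named below are values of single genes. In the chromosomal passenger complex and its recruiters, which correct wrong attachments, 5 of 6 fell and 0 rose, led by the kinase AURKB (-1.22 ± 0.090) and its targeting subunit CDCA8, borealin (-1.12 ± 0.11). Of 10 other genes listed with the checkpoint 8 fell. The largest falls were those of KIF14 (-1.17 ± 0.13), a mitotic kinesin rather than a checkpoint protein, and the kinase PLK1 (-0.96 ± 0.095). In the same list MAD2L1BP (p31comet), which removes MAD2 from checkpoint complexes, rose (0.23 ± 0.075). The deubiquitinase USP44 was called higher too, but its means of 5.18 untreated and 5.42 treated lie in the dim range, and with dim genes left out 7 genes of the pathway rose in place of 8. KIF14 also ended in that range, at 6.64.

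Of 13 microtubule regulators 6 fell and 4 rose. SPAG5 (astrin, -1.34 ± 0.10) and the microtubule-depolymerising kinesin KIF2C (-1.30 ± 0.092) fell, and the dynein light chain DYNLT3 (0.83 ± 0.091) and the plus-end protein CLIP1 (0.39 ± 0.085) rose. Among phosphatase subunits and nucleoporins found at kinetochores 6 of 12 fell and 1 rose, with the nucleoporins NUP107 (-0.58 ± 0.090) and NUP85 (-0.46 ± 0.069) lowest and the PP2A scaffold PPP2R1A higher (0.24 ± 0.067). Of 4 measured further centromere genes CENPV (-0.50 ± 0.085) and ITGB3BP (CENP-R, -0.50 ± 0.086) fell and CENPX (0.26 ± 0.091) rose. The count of rises was 5 of 45 when all probe sets were tested together, and between 5 and 8 when single arrays were left out: 5 without untreated replicate 4, H2O2 replicate 1, H2O2 replicate 2 or H2O2 replicate 4.

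**Figure D5:**
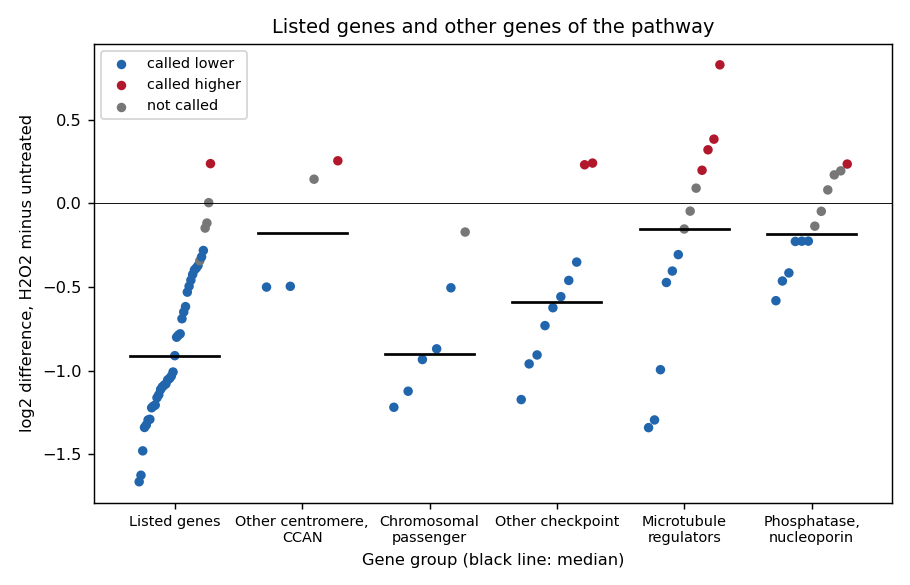
Log2 difference (H2O2 minus untreated, vertical axis) of the listed genes and of 5 other groups of the pathway, 1 point per gene, coloured by call, with the group's median as a black line. The listed genes and the chromosomal passenger group have medians near -0.91 and -0.90, and the microtubule regulators reach from -1.34 to 0.83.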

How the data were processed

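The authors deposited 1 log2 intensity for each probe set on each array; that the scale is log2 was read from the values. Probe summarisation and array normalization: not given in the sources used here (the submitters' processing notes name limma, without a role). Of 32321 probe sets 19158 carry a single symbol in the platform annotation, giving 18404 genes; where a gene had several, the brightest on average was used. Groups follow the sample titles. Treated and untreated arrays were compared with limma 3.58.1 in R 4.3.3 (Benjamini-Hochberg over all genes), tested on simulated data, and partner pairs by exact permutation over arrays. The number of arrays limits the precision.

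Genes, lists and pairs were chosen with earlier results of these data known. All array values are given for the largest and smallest difference of each complex and for genes not called or higher; from other lists up to 2 called falls and rises are named. Alternatives were a replicate block, quantile normalization, median centring, a filter on dim genes, other probe set rules, trend and robust options, array weights and leaving out each array.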

Additional observations from a re-analysis of the deposited data

Results flagged for a closer look

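In 4 of 82 groups of 4 arrays (41 genes in 2 groups), 1 array lay far from the other 3 by Dixon's test; chance alone gives about 1 in 20. BUB1B was at 9.52 on untreated replicate 4, against 9.70 to 9.72 on the others. CENPM was at 8.10 on untreated replicate 3, against 8.31 to 8.35. CENPL was at 6.63 on untreated replicate 2, against 6.51 to 6.53, and CENPP at 6.66 on H2O2 replicate 3, against 6.77 to 6.79. All 4 genes were lower after H2O2 with any single array left out.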

How the results depend on the processing

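The 36 genes that fell were called lower under each of the 16 alternatives that tested them (38 of the 41 genes remained without dim genes). The count of listed genes that rose was 0 with the replicate block (CENPT, limma adjusted p = 0.0562; 0.0503 to 0.0622 without the 3 arrays that ended the call) and 0 to 1 without single arrays. The block changed no other listed gene's call. Replicate numbers were not taken to pair the arrays: deviations of same-numbered arrays correlated at -0.25 to 0.094. MIS12, near 0, changed sign after quantile normalization (-0.014) and ranged from -0.069 to 0.085 without single arrays. Other pathway genes that rose numbered 5 with all probe sets tested together and 5 to 8 without single arrays. With array weights 4111 of all genes were lower, against 2732. Partner pairs that passed numbered 0 in the exact test, 11 with limma, 11 with limma and the replicate block, 11 with array weights, and 0 to 13 without single arrays; an exact test with 4 arrays per group is limited by its smallest p. The cause of these shifts was not tested. No probe's background was used, so the size of a fall into the dim range is less exactly known.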

Other observations

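Some listed genes start next to a gene transcribed in the opposite direction, within 1000 bases in the RefSeq annotation of GRCh38.p14. Of the 33 with a promoter entry, 12 had such a neighbour with a value; these neighbours were looked up after the listed genes' values were seen. Of the 12 neighbours 4 fell, 1 rose and 7 did not pass, beside 14.8% lower and 19.2% higher over all genes tested. NUSAP1, a spindle-binding protein gene beside OIP5, fell by 1.17 ± 0.10 (limma adjusted p = 9.15e-07), close to OIP5's own difference of -1.11. PRR11, beside SKA2, fell by 1.08 ± 0.081, more than SKA2 (-0.43). METTL4, beside NDC80, fell by 0.44 ± 0.085 where NDC80 gave -1.30, and MMUT, a mitochondrial mutase gene beside CENPQ, fell by 0.37 ± 0.093 where CENPQ gave -0.91. DERL2, of endoplasmic reticulum quality control, beside MIS12, rose by 0.28 ± 0.080 (adjusted p = 0.0143). RGS5 beside NUF2 gave 0.12 ± 0.10, MRPL57 beside SKA3 -0.02 ± 0.12, PPWD1 beside CENPK -0.19 ± 0.094, CMC2 beside CENPN 0.01 ± 0.11 and PTRHD1 beside CENPO -0.01 ± 0.10. The ribosomal protein gene RPL4 beside ZWILCH gave -0.12 ± 0.064 and NOL8 beside CENPP 0.18 ± 0.076. None of these 7 passed (adjusted p from 0.0898 to 0.958), and 3 of them lie beside genes that fell by more than 1 on the log2 scale (NUF2, SKA3 and CENPK). Whether the difference within each such gene pair exceeds its error was not tested.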
